A study of Rattus norvegicus with 6 samples.

Results

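miR-10a and miR-10b were followed through every deposited count listed under the rat hairpins rno-mir-10a and rno-mir-10b, 2 of the 821 hairpins in the files. Over all libraries the counts of rno-mir-10b fell on 159 distinct sequences and those of rno-mir-10a on 190. Small RNA had been sequenced from RSC96, a single immortalised rat Schwann cell line, with 3 libraries after 48 h in high glucose and 3 control libraries after 48 h in low glucose. The labels give no glucose concentrations. The study's title speaks of Schwann cell exosomes, whereas the sample labels name nerve and the cell line and leave it unstated if vesicles or cells were sequenced, and the extraction text speaks of retinas.

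miRNAs are cut from a hairpin precursor as a duplex of a 5p and a 3p arm, of which the more stable strand is kept in an Argonaute protein and guides it to mRNAs. Pairing rests mainly on the seed, bases 2 to 8 of the miRNA, so a shift of the 5′ end changes the set of matching mRNAs, while the 3′ end is often trimmed or tailed without a change of seed. The mir-10 genes lie inside Hox clusters, the arrays of transcription factor genes that set position along the body axis, and miR-10 is known to repress several Hox mRNAs in zebrafish and human cells. Variants of a miRNA that differ at their ends or carry a mismatch are called isomiRs.

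Both hairpin sequences in the files were identical to RefSeq's hairpins on the GRCr8 assembly. rno-mir-10b is at chr3:80035859-80035967 on the plus strand, inside the annotated span of Hoxd4. rno-mir-10a is at chr10:81779709-81779818 on the plus strand, between Hoxb5 and Hoxb4, 1272 bp before Hoxb4. Positions below are counted from 1 at the 5′ end of each hairpin, and an isomiR is named by its first and last position. The main sequence of the 5p arm, the most abundant over all 6 libraries, ran from 26 to 47 for miR-10b and from 22 to 43 for miR-10a. These are shown with the base at which they differ in capitals, position 12 counted from 1 at the 5′ end of the sequence, a T12A difference from miR-10a to miR-10b:

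miR-10b-5p 26-47: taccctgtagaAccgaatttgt
miR-10a-5p 22-43: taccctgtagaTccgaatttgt

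The isomiRs below differ from these at the 5′ start, which changes the seed, at the 3′ end, or at both. In the first set capitals mark the seed, and the members that start 1 nt later have the seed ccctgta in place of accctgt:

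miR-10b-5p 26-47: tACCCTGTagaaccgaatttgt
miR-10b-5p 27-47: aCCCTGTAgaaccgaatttgt
miR-10b-5p 27-49: aCCCTGTAgaaccgaatttgtgt
miR-10a-5p 22-43: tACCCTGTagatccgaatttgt
miR-10a-5p 23-43: aCCCTGTAgatccgaatttgt

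In the second set capitals mark the hairpin bases that extend past the 3′ end of the main sequence:

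miR-10b-5p 26-48: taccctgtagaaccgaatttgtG
miR-10b-5p 26-49: taccctgtagaaccgaatttgtGT
miR-10b-5p 27-49: accctgtagaaccgaatttgtGT
miR-10a-5p 22-44: taccctgtagatccgaatttgtG
miR-10a-5p 23-44: accctgtagatccgaatttgtG
miR-10a-5p 23-45: accctgtagatccgaatttgtGT

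RefSeq's mature sequences, printed with the seed in capitals, show where the reference annotation places the 5p ends:

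miR-10b-5p RefSeq: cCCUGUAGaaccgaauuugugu
miR-10a-5p RefSeq: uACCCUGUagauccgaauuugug

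The RefSeq form of miR-10b-5p runs from 28 to 49 and had no listed count in any of the 6 libraries. Its start is 2 nt later than that of the main sequence, which gives it another seed, ccuguag. The RefSeq form of miR-10a-5p runs from 22 to 44, has the seed of the main sequence, and is the isomiR 22-44 described below.

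Both 5p arms were several-fold higher in high glucose than in low glucose. miR-10b-5p had 50899, 90941 and 68481 counts in the high glucose libraries, against 1598, 1799 and 1568 counts in the low glucose libraries. With edgeR's TMM method these were 52570, 74104 and 55911 counts scaled to library size (CPM) in high glucose, against 11102, 12030 and 14013 CPM in low glucose. The groups did not overlap, and the second high glucose library was the highest. miR-10b-5p averaged 60862 ± 11589 CPM in high glucose against 12382 ± 1487 CPM in low glucose (SD, n = 3 each). It rose 4.92-fold, a log2 fold change of 2.30 ± 0.19 (SE), with an adjusted p of 6.12e-05 in edgeR's quasi-likelihood test with Benjamini-Hochberg adjustment.

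miR-10a-5p had 42052, 70268 and 57549 counts in high glucose, against 1380, 1636 and 1468 counts in low glucose. Its levels were 43433, 57258 and 46985 CPM in high glucose, against 9587, 10940 and 13119 CPM in low glucose. As for miR-10b-5p, the groups did not overlap and the second high glucose library was the highest. miR-10a-5p averaged 49225 ± 7180 CPM in high glucose against 11216 ± 1782 CPM in low glucose (SD, n = 3 each), a 4.39-fold rise with a log2 fold change of 2.13 ± 0.18 (SE) and an adjusted p of 6.80e-05 in the same edgeR test. By mean CPM, miR-10b-5p ranked 4 among all arms in high glucose against 13 in low glucose, and miR-10a-5p ranked 6 in high glucose against 15 in low glucose. Together the hairpins took 9.65%, 12.6% and 9.32% of all counts in the high glucose libraries, against 2.41%, 2.32% and 2.65% in the low glucose libraries.

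These rises stood among many. Of the 4 miR-10 arms 3 could be tested, of which miR-10a-3p passed the filter on low counts through high glucose alone. Both 5p arms were called higher, while of the 297 arms tested over the whole series 41.1% were called higher and 22.6% lower. With TMM these were 122 arms higher against 67 lower. The excess of higher calls remained with DESeq2's size factors (111 against 73) and with scaling by total counts alone (112 against 72). It was lost when upper quartiles set the scale (91 against 93). Nor was it seen after thinning to equal depth (65 against 66), where only 164 arms were tested. The log2 fold changes of 2.30 and 2.13 stood beside a median of 0.68 over all tested arms. The libraries also differed in depth with the treatment, at 963706 to 1354456 counts in high glucose and 114615 to 148143 counts in low glucose, a 9.31-fold ratio of the group means, so depth and glucose cannot be told apart. With every library thinned to 114497 reads, the log2 fold change was 2.12 for miR-10b-5p and 1.99 for miR-10a-5p. No label states that replicates were separate cultures, so each p-value reflects only how far these libraries scatter, possibly for technical reasons. Fewer expressing cells or vesicles cannot be told apart from less miRNA in each.

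Marker miRNAs of Schwann cells and other cell types were read beside the miR-10 levels. Of 3 glial miRNAs, miR-338 and miR-138 were not listed, and the other, miR-219a, stood at 17.9 to 58.0 CPM in high glucose against 0 to 44.7 CPM in low glucose. The neuronal list, 2 of 3 miRNAs with miR-124 at 0, summed to 15737 to 21885 CPM in high glucose against 2788 to 4674 CPM in low glucose, and liver miR-122 to 8490 to 14709 CPM in high glucose against 2996 to 4308 CPM in low glucose. The erythroid list, 3 of 3, ran the other way, at 760 to 952 CPM in high glucose against 3243 to 6381 CPM in low glucose. The retina list, 4 of 5 with miR-96 at 0, overlapped between groups at 60.3 to 116 CPM in high glucose against 66.9 to 134 CPM in low glucose. The muscle list, 2 of 3 with miR-133a at 0, ran from 0 to 56.2 CPM in high glucose. In low glucose it was listed at 0, so the groups overlapped. The fibroblast list, 4 of 4, stood at 293 to 356 CPM in high glucose against 382 to 447 CPM in low glucose. The part of these cell types in the miR-10 levels was not tested.

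**Figure D1:**
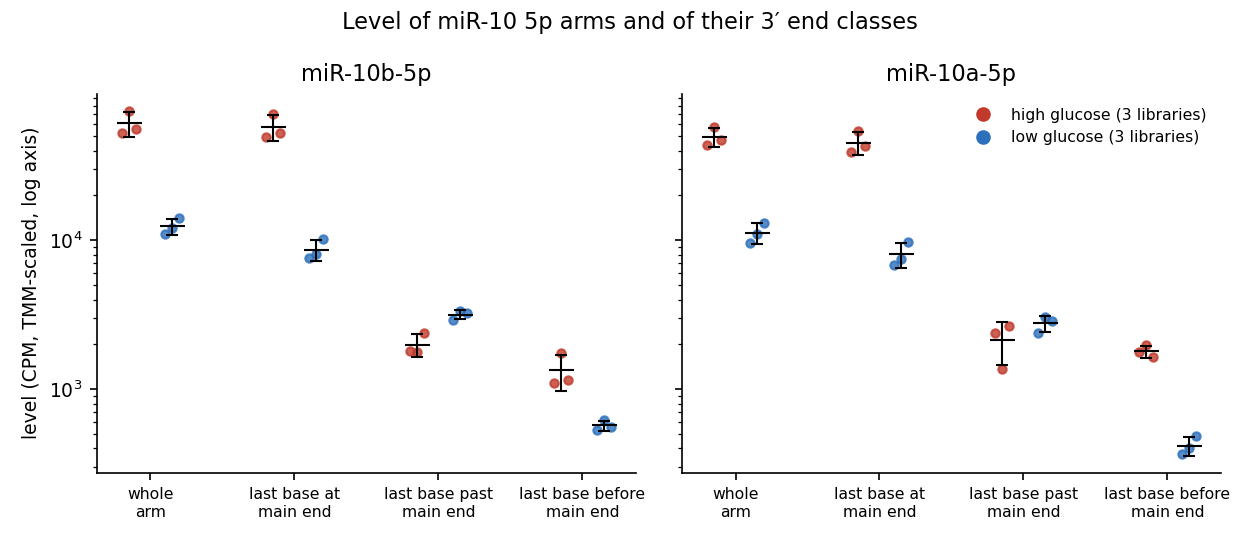
Level of the miR-10b-5p and miR-10a-5p arms and of their 3′ end classes in each library, in TMM-scaled CPM on a log axis; points are libraries, and bars give the mean ± SD (n = 3 each). The whole arms and the counts that end with the main sequence lie several-fold higher in high glucose, whereas the counts that end past it do not, at 1777 to 2393 CPM in high glucose against 2918 to 3337 CPM in low glucose for miR-10b-5p.

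The 3p arms, the strands usually discarded from the duplex, were close to the floor of the data. Their most abundant sequences are shown with the seed in capitals, which is shared neither with the 5p arms nor with the other 3p arm:

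miR-10b-3p 65-86: aCAGATTCgattctaggggaat
miR-10a-3p 63-83: cAAATTCGtatctaggggaat

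miR-10b-3p had 43, 16 and 54 counts in the high glucose libraries, against 0, 0 and 2 counts in the low glucose libraries, too few for the test. Its summed counts relative to depth were 6.07-fold higher in high glucose, with an exact 95% binomial interval of 1.64 to 50.7 that covers counting error only. The ratio rests on the 2 counts of low glucose library 3, and the groups overlapped, since that library stood at 17.9 CPM and high glucose library 2 at 13.0 CPM. miR-10a-3p had 19, 92 and 100 counts in high glucose and was listed at 0 in all low glucose libraries. It entered the test through its high glucose counts alone, so its call (adjusted p = 0.0115, edgeR) could only be higher and is given as a description, and no fold is given, because sequences with a single read are not listed. At the share it had in high glucose, miR-10a-3p would have had 6.72 to 8.69 counts in a low glucose library. As a share of the hairpin's counts, the 3p arm of rno-mir-10b took 0.0844%, 0.0176% and 0.0788% in high glucose against 0%, 0% and 0.127% in low glucose, and that of rno-mir-10a 0.0452%, 0.131% and 0.174% in high glucose against 0% in each low glucose library. The 5p arm thus made up nearly all counts of both hairpins in both groups.

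The balance between the miR-10 genes shifted slightly towards miR-10b in high glucose. miR-10b-5p made up 54.8%, 56.4% and 54.3% of the summed 5p counts in high glucose, against 53.7%, 52.4% and 51.6% in low glucose. The groups did not overlap, with means of 55.2% ± 1.10 in high glucose against 52.6% ± 1.02 in low glucose (SD, n = 3 each). An exact two-sided permutation test gave p = 0.1, the smallest that 3 against 3 libraries allow, and 0.146 after Benjamini-Hochberg adjustment over the 70 per-library measures tested this way. The main sequences differ by 1 base, and counts of sequences listed under both hairpins came to 52, 100 and 60 in high glucose and 0 in each low glucose library, at most 0.0620% of the miR-10 counts.

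Of the other miRNAs encoded in Hox clusters, miR-196a and miR-196c had no counts. miR-196b-5p, a relative of miR-196a from the Hoxa cluster, had 24, 4 and 0 counts in high glucose and 0 in each low glucose library, below the test's filter. miR-615-3p, from an intron of Hoxc5 in mammals, had 718, 1076 and 1079 counts in high glucose, against 6, 2 and 10 counts in low glucose. It was 18.3-fold higher in high glucose (log2 fold change 4.19 ± 0.45 SE, adjusted p = 0.000181, edgeR), with no overlap between groups. Without low glucose library 3 its log2 fold change was 4.89. The list thus held 1 testable miRNA outside the mir-10 genes, and that miRNA rose.

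The miR-99 and miR-100 miRNAs resemble miR-10 in sequence but differ from it in the seed. Of their 4 tested arms 3 were called higher and 0 lower, beside the 41.1% higher and 22.6% lower of all arms tested. miR-99b-5p rose about as far as the miR-10 arms, with a log2 fold change of 2.29 and levels of 37408 ± 7800 CPM in high glucose against 7651 ± 674 CPM in low glucose (SD, n = 3 each). miR-99b-3p was called higher with a log2 fold change of 0.85 (adjusted p = 0.00266, edgeR), though at 0.26 it did not pass under upper quartile scaling (adjusted p = 0.254, edgeR). miR-99a-5p was called higher at 0.44 (adjusted p = 0.0408, edgeR), but its fold change was -0.14 under upper quartile scaling and it did not pass in 10 of 15 alternatives. miR-100-5p, with a log2 fold change of -0.09 and an adjusted p of 0.713 (edgeR), did not pass, and with upper quartile scaling it was called lower at -0.68 (adjusted p = 0.0264, edgeR). miR-10b-5p was compared with the 74 other arms with a mean of 1000 CPM or more. The pattern over the 6 libraries most like its own was that of miR-10a-5p, with a mean absolute difference of 0.0758 in centred log2 CPM. Next came miR-125a-5p at 0.0967 and miR-99b-5p at 0.130. For miR-10a-5p the nearest were miR-10b-5p at 0.0758, miR-125a-5p at 0.125 and miR-99b-5p at 0.142, while the median over the arms compared was 1.18 for miR-10b-5p and 1.10 for miR-10a-5p.

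The 5p arms differed between the groups not only in level but also in the ends of their sequences: in high glucose nearly all counts ended where the main sequence ends, and in low glucose a far larger share ran past it. The main sequence made up 82.0%, 82.7% and 80.7% of miR-10b-5p counts in high glucose, against 59.0%, 58.3% and 63.1% in low glucose. It made up 72.0%, 74.5% and 72.7% of miR-10a-5p counts in high glucose, against 57.6%, 53.5% and 61.2% in low glucose. For both arms every high glucose library lay above every low glucose library.

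Counts whose last base lay past the end of the main sequence made up 3.44%, 2.40% and 4.28% of miR-10b-5p in high glucose, against 26.3%, 27.7% and 23.1% in low glucose. The means were 3.37% ± 0.943 in high glucose against 25.7% ± 2.38 in low glucose (SD, n = 3 each). For miR-10a-5p these longer forms made up 5.51%, 2.40% and 5.63% in high glucose, against 24.7%, 27.9% and 21.9% in low glucose, with means of 4.51% ± 1.83 in high glucose against 24.8% ± 3.00 in low glucose (SD, n = 3 each). The groups were far apart for both arms, and each exact two-sided permutation test gave the smallest possible p of 0.1.

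Most of the longer forms extended by 1 or 2 nt. A 3′ end 2 nt past the main one was the more frequent in miR-10b-5p, at 2.35% in high glucose against 16.9% in low glucose. A 3′ end 1 nt past it stood at 1.02% in high glucose against 8.76% in low glucose. In miR-10a-5p the extensions were of similar weight, at 2.50% in high glucose against 11.8% in low glucose for 2 nt, and 2.01% in high glucose against 13.0% in low glucose for 1 nt. Ends 1 nt before the main one were also rarer in high glucose, at 0.469% in high glucose against 2.64% in low glucose for miR-10b-5p, and 0.543% in high glucose against 2.02% in low glucose for miR-10a-5p. Ends 3 nt before it overlapped between groups in miR-10b-5p and were more frequent in high glucose in miR-10a-5p, at 2.38% in high glucose against 1.12% in low glucose without overlap. The main end itself was the more frequent in high glucose in both arms, with 94.4% ± 0.799 of miR-10b-5p counts at the main end in high glucose against 69.7% ± 3.00 in low glucose (SD, n = 3 each), and 91.8% ± 2.05 of miR-10a-5p counts in high glucose against 71.5% ± 3.00 in low glucose (SD, n = 3 each).

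**Figure D2:**
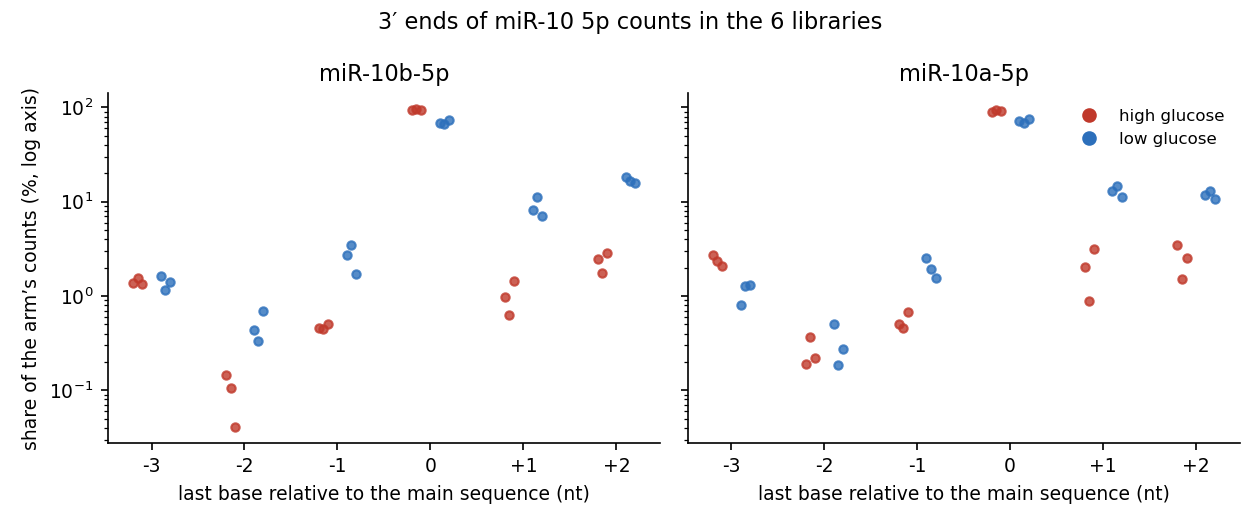
Share of the counts of miR-10b-5p and miR-10a-5p by the position of their last base relative to that of the main sequence, in percent on a log axis, with 1 point per library. At +1 and +2 nt every low glucose library lies above every high glucose library, and at 0 nt every high glucose library lies above every low glucose library.

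A test of each sequence's share within its arm was run over all arms with edgeR's diffSpliceDGE. It compares a sequence's change with that of the arm's summed counts, and its share changes are given below as natural logs. The test treats the sequences of an arm as independent, so its p-values are likely too small. Of the 341 distinct 5p sequences of the mir-10 hairpins 54 had enough counts, and of these 3 had a higher and 17 a lower share in high glucose, while over all 1452 sequences tested 7.23% had a higher and 9.99% a lower share. Of the 54, 8 had passed through high glucose alone, with low glucose at 0, and among the other 46 there were 2 with a higher and 17 with a lower share, beside 5.9% and 10.1% of the 1340 sequences with counts in both groups. Of the 17 that ended past the main end 14 had a lower share and 0 a higher one, of the 24 that ended with it 0 were lower and 2 higher, and of the 13 that ended before it 3 were lower and 1 higher. All 8 sequences at 0 in low glucose were among those 24 and could not be called lower. Across whole arms, 59.4% of the 155 arms tested had shares that differed between groups, and miR-10b-5p ranked 3 (adjusted p = 2.74e-30, edgeR) and miR-10a-5p 5 (adjusted p = 4.68e-23, edgeR).

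The sequence with the lowest p of all 1452 was miR-10b-5p 27-49, which starts 1 nt later and ends 2 nt later than the main sequence. It made up 1.06%, 0.945% and 1.36% of the arm in high glucose, against 11.4%, 11.2% and 11.2% in low glucose. Its natural-log share change was -2.33 ± 0.21 (SE), with an adjusted p of 3.19e-16 (edgeR). miR-10b-5p 26-48 averaged 0.641% ± 0.276 in high glucose against 5.34% ± 1.13 in low glucose, and 26-49 averaged 0.419% ± 0.170 in high glucose against 2.78% ± 0.954 in low glucose (SD, n = 3 each). Their natural-log share changes were -2.18 and -1.95, with adjusted p-values of 7.22e-14 and 1.92e-10 (edgeR), and neither overlapped between groups.

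The longer forms of miR-10a-5p differed in the same direction. The RefSeq form 22-44 made up 1.13%, 0.410% and 1.66% of the arm in high glucose, against 6.74%, 7.33% and 6.47% in low glucose (natural-log share change -1.92, adjusted p = 1.10e-10, edgeR). 23-44 averaged 0.815% ± 0.443 in high glucose against 5.52% ± 1.27 in low glucose (SD, n = 3 each), and its natural-log share change was -1.96. 23-45 averaged 0.836% ± 0.168 in high glucose against 5.44% ± 0.838 in low glucose (SD, n = 3 each), with a natural-log share change of -1.88. None of the 3 overlapped between groups, and the second high glucose library had the lowest share of each. The forms that start later but end with the main sequence had larger mean shares in high glucose. miR-10a-5p 23-43 averaged 12.3% ± 0.427 in high glucose against 6.98% ± 0.471 in low glucose (SD, n = 3 each, natural-log share change 0.57, adjusted p = 0.0368, edgeR). That call was lost in each fit without a low glucose library, where its adjusted p was 0.179 to 0.286 (edgeR). The like form of miR-10b-5p, 27-47, averaged 6.61% ± 0.597 in high glucose against 3.98% ± 0.629 in low glucose (SD, n = 3 each), and with a natural-log share change of 0.50 and an adjusted p of 0.0872 (edgeR) it did not pass. The main sequences had natural-log share changes of 0.31 for miR-10b-5p and 0.25 for miR-10a-5p and did not pass either (adjusted p = 0.279 and 0.413, edgeR). With limma's diffSplice in place of edgeR these 3 passed, with changes of 1.60 to 1.99 and adjusted p-values of 3.59e-12 to 2.14e-07. The limma changes are in log2 and relative to the average of the arm's other sequences, so their size cannot be compared with edgeR's.

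Seen as levels instead of shares, the rise of the arms lay mostly in the sequences that end with the main one. miR-10b-5p counts ending there stood at 49658, 70577 and 52357 CPM in high glucose, against 7649, 8071 and 10224 CPM in low glucose, a 6.65-fold ratio of the means. miR-10b-5p counts ending past it stood at 1811, 1777 and 2393 CPM in high glucose, against 2918, 3337 and 3235 CPM in low glucose, a ratio of 0.630 with no overlap between groups (exact permutation p = 0.1, the smallest possible). For miR-10a-5p the ratio was 5.64 for counts ending with the main sequence. Its counts ending past it stood at 2391, 1372 and 2645 CPM in high glucose, against 2369, 3049 and 2869 CPM in low glucose, a ratio of 0.773 with overlapping groups (exact permutation p = 0.3). Counts ending before the main end were higher in high glucose without overlap, 2.35-fold for miR-10b-5p and 4.30-fold for miR-10a-5p.

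Single sequences showed the same split by 3′ end in an edgeR test of their levels. The main sequence of miR-10b-5p averaged 58221 ± 14258 CPM in high glucose against 6389 ± 464 CPM in low glucose (SD, n = 3 each), with a log2 fold change of 3.19 ± 0.21 (SE). The main sequence of miR-10a-5p averaged 42059 ± 8666 CPM in high glucose against 5520 ± 665 CPM in low glucose (SD, n = 3 each), with a log2 fold change of 2.93. Libraries were scaled over sequences here, not over arms, and with only sequences of a mean of 50 or more counts in the fit these log2 fold changes were 2.42 and 2.16. Of the 54 miR-10 5p sequences 34 were called higher in level and 1 lower, beside 34.8% higher and 17.8% lower among all 1541 sequences tested. The 34 include 8 sequences at 0 in low glucose, which could only be called higher. Among the 46 with counts in both groups 26 were higher and 1 lower, beside 29.9% higher and 18.6% lower of the 1417 such sequences over all arms. Of the 17 that end past the main end, 3 were higher and 1 lower, and all 3 that were higher carry an A in place of the hairpin's last T (miR-10b-5p 26-49 T24A, miR-10b-5p 27-49 T23A and miR-10a-5p 23-45 T23A, counted from 1 at the 5′ end of the sequence with the hairpin base first, and picked out after their values were seen). The sequence that was lower is miR-10b-5p 27-49, at 646, 853 and 840 CPM in high glucose, against 1177, 1177 and 1224 CPM in low glucose (log2 fold change -0.61 ± 0.20 SE, adjusted p = 0.0295, edgeR). Its call was lost without high glucose library 1 (adjusted p = 0.0740) and without any low glucose library (0.0785 to 0.0898, edgeR). The levels of miR-10b-5p 26-48 and 26-49 and of miR-10a-5p 22-44, 23-44 and 23-45 had log2 fold changes between -0.40 and -0.06 and did not pass, with adjusted p-values of 0.252 to 0.878 (edgeR). In the fit of sequences with a mean of 50 or more counts all 5 were called lower, with log2 fold changes of -1.14 to -0.81 and adjusted p-values of 0.00515 to 0.0435 (edgeR).

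**Figure D3:**
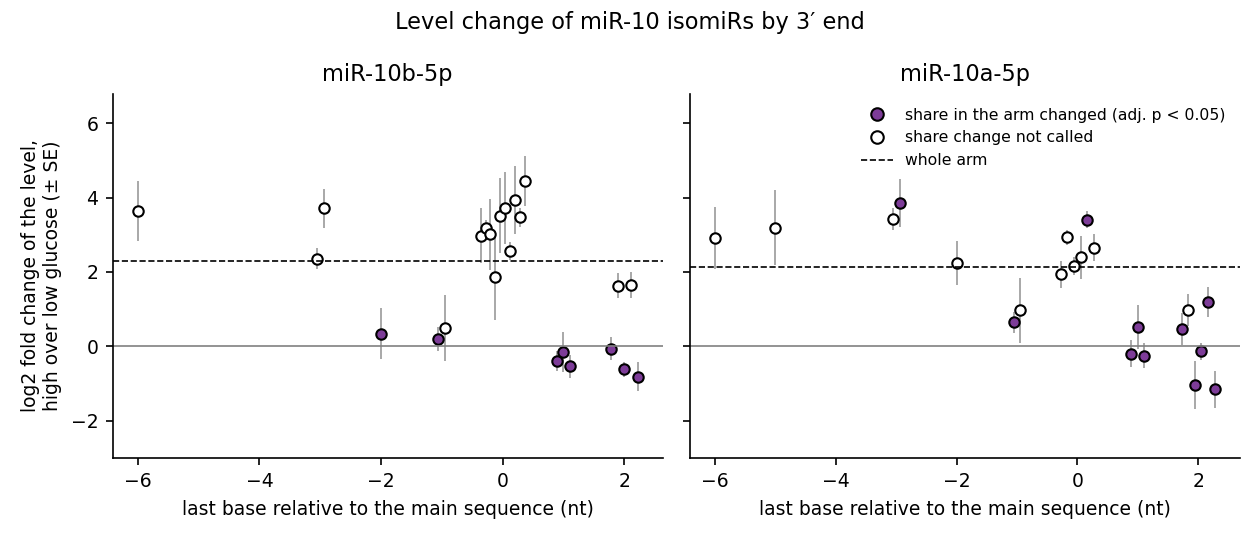
Log2 fold change of the level of each tested miR-10b-5p and miR-10a-5p sequence, high over low glucose, with its SE, against the position of its last base relative to the main sequence in nt, slightly spread so that points do not hide each other. Shown are 46 sequences, those listed in low glucose; filled points had a share in the arm that differed between groups, and the dashed lines mark the whole arms at 2.30 and 2.13. At 0 nt most points lie near or above the dashed line and at +1 and +2 nt below it. Points were scaled over sequences and the dashed lines over arms, so heights relative to the line also hold that difference in scaling.

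The start of the sequences, which sets the seed, differed as well. Counts starting 1 nt later than the main sequence made up 9.05%, 9.02% and 10.5% of miR-10b-5p in high glucose, against 20.4%, 20.8% and 20.3% in low glucose. For miR-10a-5p the later start made up 16.6%, 16.2% and 16.9% in high glucose, against 20.4%, 24.9% and 19.6% in low glucose. The groups did not overlap for either arm. Counted by seed, accctgt made up 89.7% ± 0.837 of miR-10b-5p counts in high glucose against 79.1% ± 0.0414 in low glucose, and ccctgta 9.49% ± 0.852 in high glucose against 20.5% ± 0.297 in low glucose (SD, n = 3 each). In miR-10a-5p, accctgt made up 82.1% ± 0.250 in high glucose against 77.3% ± 2.49 in low glucose, and ccctgta 16.5% ± 0.337 in high glucose against 21.6% ± 2.87 in low glucose (SD, n = 3 each).

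This difference in start did not hold in most classes of counts that share a 3′ end. Among miR-10b-5p counts ending with the main sequence, the later start made up 6.99%, 7.12% and 8.20% in high glucose, against 5.99%, 5.22% and 6.29% in low glucose, the opposite direction. Among those ending 1 nt later, it averaged 31.4% ± 1.58 in high glucose against 33.7% ± 1.88 in low glucose with overlapping groups, and among those ending 2 nt later 66.0% ± 3.34 in high glucose against 76.9% ± 4.03 in low glucose without overlap (SD, n = 3 each). In both groups, therefore, the later start was the more frequent the further the 3′ end lay downstream. Among miR-10a-5p counts ending with the main sequence, the later start averaged 14.2% ± 0.196 in high glucose against 10.9% ± 1.40 in low glucose without overlap (SD, n = 3 each). Among miR-10a-5p counts ending 1 or 2 nt later the groups overlapped, at 42.5% in high glucose against 43.6% in low glucose for 1 nt, and 60.4% in high glucose against 63.7% in low glucose for 2 nt.

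**Figure D4:**
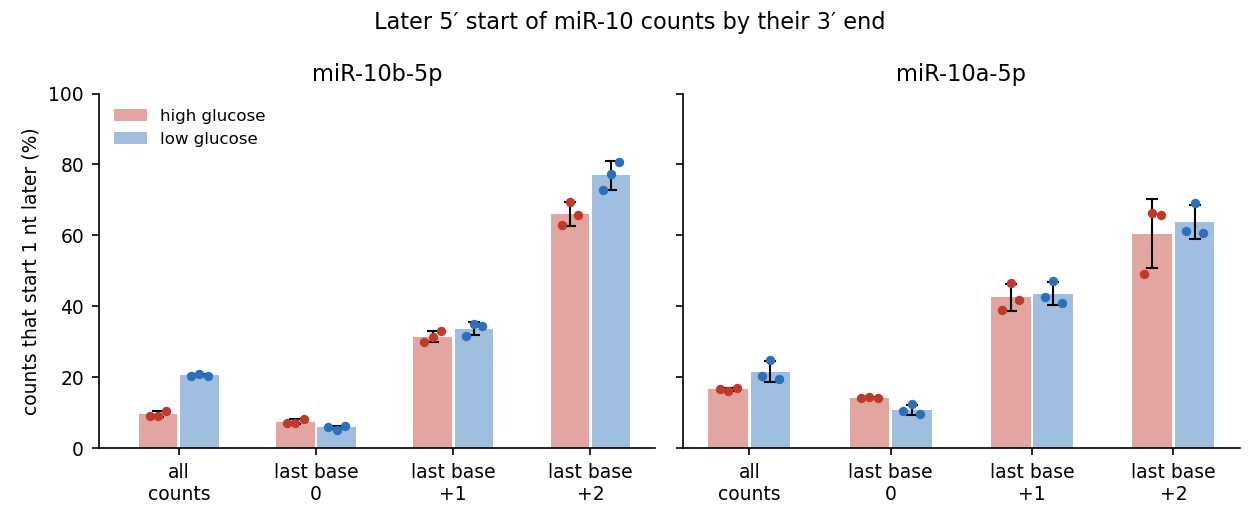
Share of miR-10b-5p and miR-10a-5p counts that start 1 nt later than the main sequence, over all counts and among counts whose last base is 0, 1 or 2 nt past that of the main sequence; bars are means, error bars SD and points libraries (n = 3 each). Over all counts the high glucose bars are the lower ones, among counts at 0 nt they are the higher ones, and the share grows with the 3′ end in both groups.

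Mismatches to the hairpin were mostly at the last base, where they were rarer in high glucose over each arm as a whole. A mismatch at the last base was carried by 5.85%, 5.52% and 5.13% of miR-10b-5p counts in high glucose, against 8.39%, 8.73% and 7.27% in low glucose. In miR-10a-5p it was carried by 5.71%, 5.33% and 5.42% in high glucose, against 9.13%, 10.8% and 8.04% in low glucose. Neither arm overlapped between groups. Among counts ending with the main sequence it was also rarer in high glucose without overlap. For miR-10b-5p it stood there at 4.89% ± 0.377 in high glucose against 7.11% ± 0.984 in low glucose (SD, n = 3 each). For miR-10a-5p it stood at 4.94% ± 0.331 in high glucose against 8.22% ± 1.59 in low glucose (SD, n = 3 each). Among miR-10b-5p counts ending 2 nt past the main end the direction was the other one, at 33.5% ± 4.68 in high glucose against 16.8% ± 1.93 in low glucose without overlap (SD, n = 3 each). Among miR-10a-5p counts ending 1 nt past the main end they were also the more frequent in high glucose, at 5.16% ± 1.42 against 2.88% ± 1.06 in low glucose without overlap (SD, n = 3 each). Mismatches at other positions were the more frequent in high glucose in both arms, at 1.26% ± 0.0738 in high glucose against 0.765% ± 0.422 in low glucose for miR-10b-5p, and 1.26% ± 0.116 in high glucose against 0.752% ± 0.353 in low glucose for miR-10a-5p (SD, n = 3 each). Neither overlapped between groups, but both did after thinning to equal depth. Over all positions the mismatch share differed by -2.14 percentage points for miR-10b-5p and -3.31 for miR-10a-5p, high minus low glucose, and by -0.80 and -1.72 when only sequences with at least 10 reads were kept. Most mismatches at the last base read C, at 4.66% ± 0.373 in high glucose against 6.31% ± 0.850 in low glucose for miR-10b-5p, and 4.59% ± 0.337 in high glucose against 6.92% ± 1.11 in low glucose for miR-10a-5p (SD, n = 3 each). A mismatched last base A was carried by 0.798% in high glucose against 1.70% in low glucose of miR-10b-5p, and by 0.861% in high glucose against 2.26% in low glucose of miR-10a-5p.

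The main forms with T22C, in which the last base of the main sequence reads C, were among the most abundant isomiRs of both arms and are shown with that base in capitals:

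miR-10b-5p 26-47 T22C: taccctgtagaaccgaatttgC
miR-10a-5p 22-43 T22C: taccctgtagatccgaatttgC

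miR-10b-5p T22C made up 4.43%, 4.41% and 3.76% in high glucose, against 4.82%, 5.17% and 4.40% in low glucose, with overlapping groups. miR-10a-5p T22C made up 3.87%, 4.04% and 3.48% in high glucose, against 5.14%, 5.75% and 4.50% in low glucose, without overlap. Neither share change passed edgeR's test (adjusted p = 0.735 for miR-10b-5p and 0.399 for miR-10a-5p). Fragments of 16 to 19 nt made up 1.67% ± 0.210 of miR-10b-5p in high glucose against 1.56% ± 0.183 in low glucose with overlapping groups, and 2.86% ± 0.440 of miR-10a-5p in high glucose against 1.39% ± 0.535 in low glucose without overlap (SD, n = 3 each).

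Fewer longer 3′ ends in high glucose were not general to the libraries. Of the 50 arms with 200 or more counts in every library, the share of counts past the main end was lower in every high glucose library than in any low glucose library for 30% and higher for 22%, and miR-10b-5p and miR-10a-5p were among the 30%. Over the other 48 arms the difference, high minus low glucose, had a median of 0.0485 percentage points and ran from -40.4 to 18.0. By size of the fall miR-10b-5p ranked 5 and miR-10a-5p 6 of the 50, behind miR-122-5p, miR-125a-5p, miR-99b-5p and miR-29a-3p. miR-125a-5p averaged 16.3% in high glucose against 53.5% in low glucose, and miR-99b-5p 20.4% in high glucose against 49.9% in low glucose. Both are also the arms whose levels over the libraries were most like those of miR-10a and miR-10b, apart from these themselves. Of the other relatives, miR-99a-5p had longer ends in 2.31% in high glucose against 12.4% in low glucose without overlap, and miR-100-5p in 19.9% in high glucose against 23.9% in low glucose with overlapping groups. The share of the main sequence was higher in high glucose without overlap in 34% of the 50 arms, both miR-10 arms among them, and lower in 28%.

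**Figure D5:**
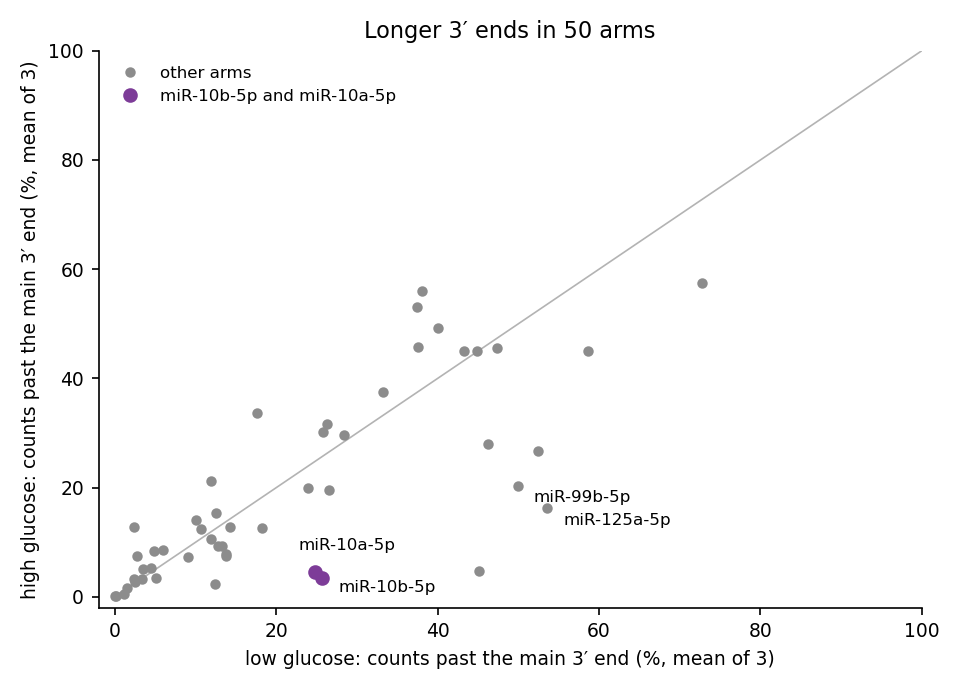
Mean share of counts that end past the main 3′ end in high glucose (vertical, percent) against low glucose (horizontal, percent) for the 50 arms with 200 or more counts in every library; the line marks equal shares. miR-10b-5p and miR-10a-5p lie near 25% in low glucose and under 5% in high glucose, and arms lie on both sides of the line.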

How the data were processed

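The authors deposited raw counts, 1 table for each of the 6 libraries: per the file headers, each line gives a sequence with its length, the hairpin it was aligned to, its position there and its reads. The submitters' processing notes list Novoalign 3.02.12 and cutadapt 1.9.3 with no role for either; no genome build or hairpin release was given in the sources used here. The tables list sequences of 16 to 40 nt with at least 2 reads. Samples were grouped by their titles. Members and lists were chosen with earlier results of these data known.

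Counts were summed per arm (5p where the sequence's centre is before the hairpin midpoint, otherwise 3p) and per sequence with Python 3.11.15, pandas 2.3.3, NumPy 2.4.6 and SciPy 1.17.1; figures used matplotlib 3.10.9. Arms and sequences were tested in R 4.3.3 with edgeR 4.0.16 (quasi-likelihood test, TMM, filterByExpr with a minimum count of 10, robust dispersions, Benjamini-Hochberg at 0.05 over all features tested), and shares within an arm with its diffSpliceDGE. limma 3.58.1 and DESeq2 1.42.0 served as alternatives, beside other scalings and filters, thinned counts (the mean of 20 draws of 114497 reads for shares), exact alignments only, annotated hairpins only, 10 reads per sequence, a replicate block, and each library left out in turn. The share of longer 3′ ends, the level test per sequence and the tallies over features with counts in both groups were added after the data were seen. The fits were tested on simulated data. A prior count of 2 was used for log2 CPM.

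The named isomiRs are the 6 of highest mean share in each 5p arm and the main one of each 3p arm. Low glucose depth, 114615 to 148143 counts, limits precision: 1 count is a larger share there, intervals cover counting error only, and reads carry no molecular identifiers. Chi-square per degree of freedom between replicates was 5.31 to 142, more than counting error gives. RefSeq sequences are of GRCr8, and both hairpins were matched by name.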

Additional observations from a re-analysis of the deposited data

How the results depend on the processing

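Over 15 alternatives the log2 fold change stayed between 1.72 and 2.44 for miR-10b-5p and between 1.56 and 2.28 for miR-10a-5p, with adjusted p-values of at most 0.0012, while miR-10a-3p, at 0 in low glucose, dropped out of the fit when thinned and without high glucose library 2 or 3, and miR-10b-3p was not fitted. Upper quartile scaling moved the median of all tested arms by -0.56. With thinning the median differed by -0.71, but over 164 arms in place of 297. Arms called higher numbered 122, against 78 with annotated hairpins only, 65 thinned and 79 to 117 without 1 library; arms called lower numbered 67, against 93 with upper quartile scaling, where 91 were higher, 66 thinned and 41 to 59 without 1 library. miR-10 sequences with a higher share, 3, became 0 with exact alignments only, 10 with limma and 0 to 3 without 1 library; those with a lower share, 17, became 11 with exact alignments only and 14 to 16 without 1 library. Over all arms, higher shares numbered 105, against 57 with exact alignments only and 37 to 97 without 1 library, and lower shares 145, against 61 with exact alignments only, 76 with a mean of 50 or more counts and 89 to 144 without 1 library. With at least 10 reads per sequence the mismatch share differed by -0.80 points (miR-10b-5p, against -2.14) and -1.72 points (miR-10a-5p, against -3.31), high minus low glucose. With limma the T22C forms had log2 changes of 0.96 (miR-10b-5p) and 0.55 (miR-10a-5p). These are relative to the average of the arm's other sequences, not to its summed counts as in edgeR. Without 1 library, level changes ran from -0.25 to 0.23 for miR-10b-5p 26-49 (above 0 without high glucose library 2, at 0.12, and low glucose library 1), from -0.59 to 0.16 for miR-10a-5p 22-44 and from -0.64 to 0.028 for 23-44 (both above 0 without high glucose library 2). miR-99a-5p turned to -0.14 with upper quartile scaling, and miR-100-5p to 0.037 with exact alignments only, running from -0.34 to 0.17 without 1 library. The cause of these changes was not tested. Libraries of the same number did not deviate together (correlations 0.044, -0.00066 and -0.028). No pairing by number was seen, though such correlations cannot exclude one. With the replicate block 105 arms were called higher and 58 lower, and miR-10 sequences with a higher share numbered 1. The calls of the miR-10a-5p 23-43 share (adjusted p = 0.0863, edgeR) and the miR-10b-5p 27-49 level (0.0679, edgeR) were lost with it.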
